A study of Ovis aries with 2 samples.

Results

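PLB1, VAT1L, SV2A and GRXCR2 were 4 of the 27054 genes counted in single cells of sheep testis. They were chosen by measured values: their levels in the spermatids of one library, named ZEA0.75, were low against those of a control library. That difference is therefore given as a description with no test. In the files the genes carry the identifiers ENSOARG00000019515 (PLB1), ENSOARG00000007791 (VAT1L), ENSOARG00000020706 (SV2A) and ENSOARG00000002267 (GRXCR2), and each symbol matched 1 gene. No sequence of them is printed, because the tables used here pair gene names only.

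The series holds 2 libraries of whole testis from sheep (Ovis aries) 8 months old, made with droplet chemistry that counts the 3' ends of transcripts by unique molecular identifiers (UMIs). The control library is labelled Control and the other ZEA0.75, from a study of testis damage by ZEA. The labels give no unit, route or length of exposure for the number 0.75, and they do not say how many animals each library holds or what breed they were. With 1 library per group there was no replicate, so no difference could be tested. Every interval below is a 95% interval that covers counting error at most. A level is given as UMIs per 1000000 UMIs of the same cells (CPM). In such sums fewer cells that express a gene and less RNA per cell cannot be told apart.

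Spermatids are the haploid cells that follow meiosis. Round spermatids build the acrosome, the vesicle that caps the sperm head. Elongating spermatids replace their histones with transition proteins and then protamines, and live on RNA made earlier. PLB1 encodes phospholipase B, an enzyme that removes fatty acids from phospholipids and is known from sperm and from epithelial brush borders. VAT1L encodes a relative of VAT1, a protein of the quinone oxidoreductase family found on vesicle membranes. SV2A is a synaptic vesicle glycoprotein of neurons and endocrine cells and the binding site of the antiseizure drug levetiracetam. GRXCR2 encodes a cysteine-rich protein with a glutaredoxin-like domain that is needed in the stereocilia bundles of inner ear hair cells.

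The control library kept 6811 cells with a median of 4121 UMIs, and the ZEA0.75 library 8804 cells with a median of 1405.5. The libraries shared 15 cell barcodes. Clustering gave 25 clusters, of which 17 could be named from marker lists. Spermatid-like cells numbered 3207 in the control and 1749 in ZEA0.75, in 4 round (numbers 1, 4, 7 and 20) and 3 elongating (3, 9 and 14) clusters. The libraries filled different ones: control cells made up nearly all of clusters 4 (395 against 1 cell), 7 (613 against 2), 3 (964 against 47) and 9 (946 against 20), while ZEA0.75 cells led in 20 (416 against 2), 1 (352 against 59) and 14 (911 against 228). Marker genes of spermatids were abundant in these cells of both libraries. The sum over 9 measured round spermatid markers was 5826 CPM in Control and 5506 CPM in ZEA0.75, and that over 9 elongating spermatid markers was 16147 and 9860 CPM. The elongating sum was thus lower in ZEA0.75, but HMGB4 alone made up 9522 and 5463 CPM of it. PRM3 (624 and 1035 CPM) and ODF1 (176 and 186 CPM) were higher in ZEA0.75, and the other elongating markers were lower. Round markers went both ways, for example EQTN with 244 and 550 CPM and CAPZA3 with 2016 and 1282 CPM. Markers of late spermatocytes (11 measured) summed to 1281 and 1840 CPM, those of endothelium (7 measured) to 3.49 and 23.0 CPM and those of peritubular myoid cells (7 measured) to 1.92 and 89.6 CPM, all higher in ZEA0.75. The part of these shifts in the values below was not tested.

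In the spermatid-like cells PLB1 had 3101 UMIs in the control and 53 in ZEA0.75. These were 93.2 CPM (89.98 to 96.6) and 7.23 CPM (5.41 to 9.45), a level 12.9 times lower in ZEA0.75 (log2 ratio −3.69, interval −4.11 to −3.30). VAT1L had 6074 and 181 UMIs. Its level was 183 CPM (178 to 187) against 24.7 CPM (21.2 to 28.6), a log2 ratio of −2.89 (−3.11 to −2.67). SV2A was the sparsest of the 4 genes in control spermatids, with 269 UMIs against 5 in ZEA0.75. Its level was 8.09 CPM (7.15 to 9.11) against 0.682 CPM (0.221 to 1.59), a log2 ratio of −3.57 with a wide interval of −5.20 to −2.33. GRXCR2 had 425 and 20 UMIs. Its level was 12.8 CPM (11.6 to 14.1) against 2.73 CPM (1.67 to 4.21), a log2 ratio of −2.23 (−2.95 to −1.58). The 2 intervals of each gene did not overlap, which the choice of the genes by low ZEA0.75 values makes likely. The share of all genes with separate intervals was not counted.

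Few genes were this much lower in ZEA0.75. The ratio was computed for 9969 genes whose 2 sums held 50 UMIs or more, and 0.802% of them were at least 4-fold lower in ZEA0.75, and all 4 genes were among them, as the way they were chosen requires. Counted from the lowest ratio, PLB1 stood at place 13, SV2A at 14, VAT1L at 25 and GRXCR2 at 57. The median gene had a log2 ratio of 0.35; relative to it each of the 4 values lies 0.35 lower still.

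**Figure D1:**
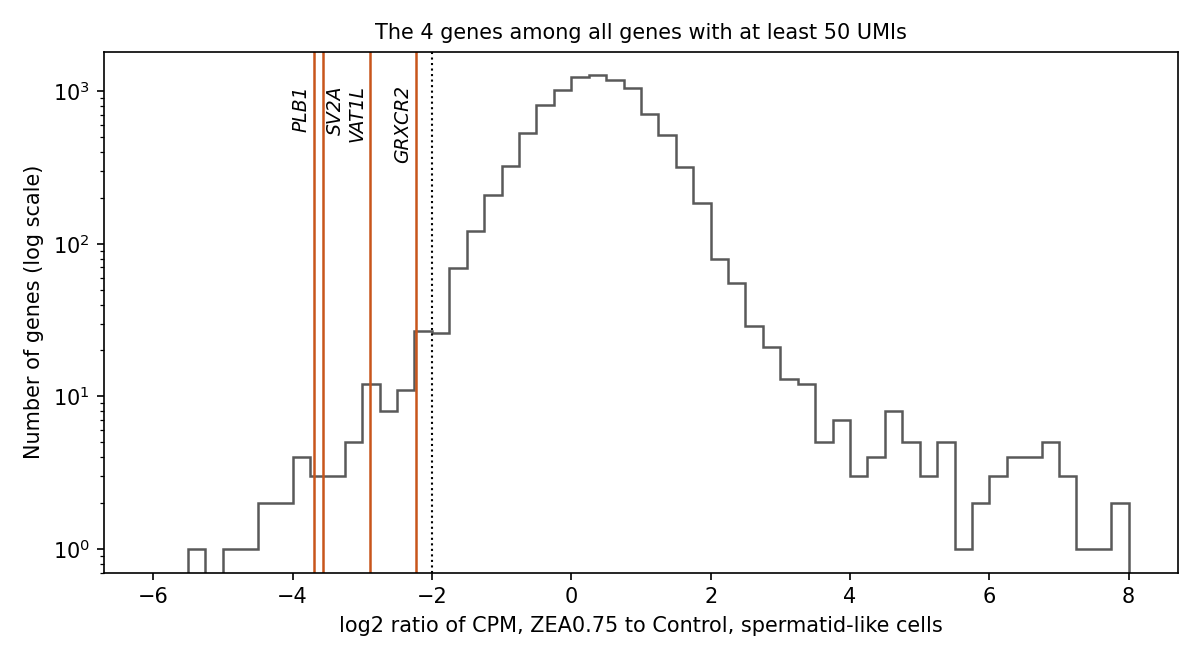
Number of genes (log scale) by log2 ratio of CPM, ZEA0.75 to Control, over 9969 genes in spermatid-like cells. Orange lines mark the 4 genes, between −3.69 for PLB1 and −2.23 for GRXCR2, all left of the dotted line at −2 (4-fold lower).

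Split by stage, PLB1 was at 41.5 against 2.59 CPM in round spermatid-like cells (log2 ratio −4.01, −4.92 to −3.22) and at 133 against 17.4 CPM in elongating ones (−2.94, −3.43 to −2.49). VAT1L was at 138 against 16.3 CPM in round (−3.09, −3.42 to −2.77) and 217 against 43.0 CPM in elongating cells (−2.34, −2.64 to −2.05). GRXCR2 was at 10.9 against 1.79 CPM in round (−2.60, −3.76 to −1.64) and 14.2 against 4.77 CPM in elongating cells (−1.58, −2.60 to −0.71). SV2A had 25 against 1 UMIs in round cells, too few to enter the ranking there, and 13.0 against 1.74 CPM in elongating cells (−2.91, −4.79 to −1.53). In round cells the 3 genes that entered were all at least 4-fold lower, where 0.703% of 8538 genes were. In elongating cells PLB1, VAT1L and SV2A were, and GRXCR2 was not, where 1.07% of 8070 genes were. VAT1L, PLB1 and GRXCR2 had point values nearer to 0 in the elongating cells. That change between stages was not tested.

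The control library shows when each gene is normally abundant. In late spermatocyte-like cells (cluster 5, 972 cells in the control and 4 in ZEA0.75) PLB1 was at 7.14 CPM, VAT1L at 22.0, GRXCR2 at 0.529 and SV2A at 0.441. All 4 were higher in the elongating spermatid-like clusters 9 and 3 described below. A stage score was computed per cell as the share of late transcripts among late plus early ones (acrosome genes and others, 7 measured). The 6 late genes measured were TNP1, PRM3, HMGB4, SPEM1, ODF1 and OAZ3. HMGB4 was the most abundant of them, at 9522 CPM in control and 5463 CPM in ZEA0.75 spermatid-like cells. The score was used to order spermatid-like cells only. Late spermatocyte-like cluster 5 had a late share of 71.1%, above the 57.2% of round cluster 7, so it does not place spermatocytes. The 2221 control spermatid-like cells with at least 5000 UMIs were divided by this score into 10 bins of about equal size, a division made after the data were seen.

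PLB1 was at 14.995 CPM (10.9 to 20.1) in bin 1, the earliest, and 63.1 CPM (55.1 to 71.9) in bin 4. It was at 157 CPM (142 to 173) in bin 9 and 146 CPM (130 to 163) in bin 10, the latest, with intervals that overlap. VAT1L was already at 88.3 CPM (78.0 to 99.6) in bin 1 and had its highest value, 269 CPM (247 to 292), in bin 10. SV2A appeared latest: 3, 0 and 6 UMIs were counted in bins 1, 2 and 3, and the level was 13.3 CPM (9.76 to 17.7) in bin 6 and 16.6 CPM (12.5 to 21.6) in bin 7. GRXCR2 had a peak in the middle. It was at 2.00 CPM (0.734 to 4.35) in bin 1, 24.3 CPM (19.4 to 30.04) in bin 5, 23.2 CPM (18.4 to 28.8) in bin 6 and 5.69 CPM (3.37 to 8.99) in bin 8.

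**Figure D2:**
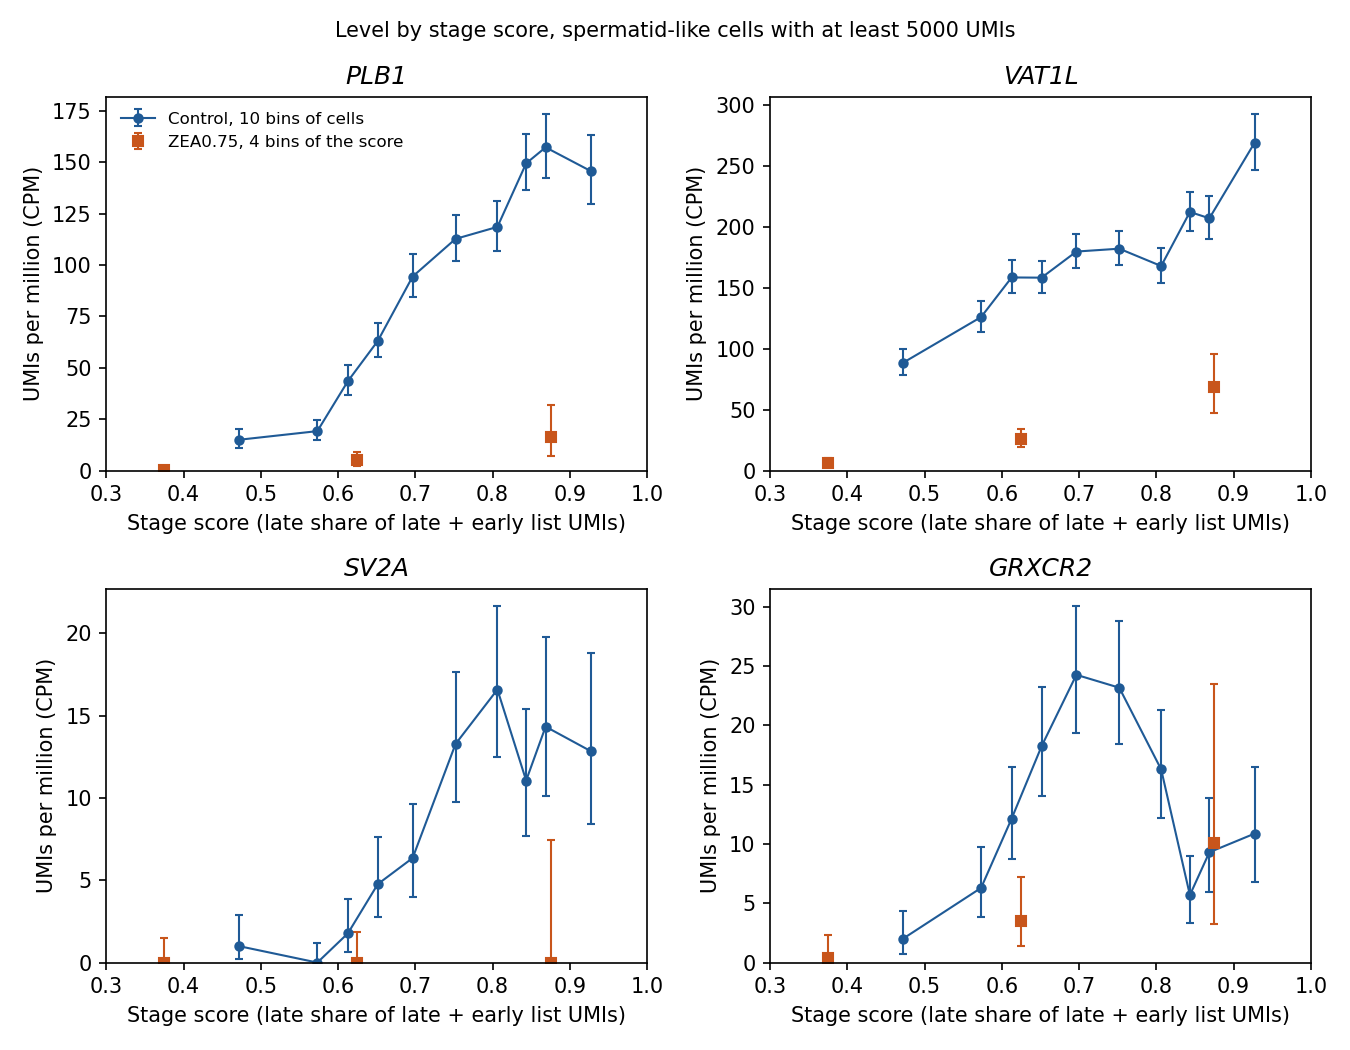
CPM of each gene against stage score in spermatid-like cells with at least 5000 UMIs: blue points are 10 bins of the control cells and orange squares are ZEA0.75 cells in wider bins (cut at 0.5 and 0.75), each at the middle of its range, with 95% Poisson intervals. In the control PLB1 goes from 14.995 to 146 CPM and GRXCR2 peaks at 24.3 CPM; the ZEA0.75 squares of PLB1 and VAT1L lie below the control points, while that of GRXCR2 in the latest bin, 10.1 CPM, does not.

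The same order can be read from the clusters. VAT1L was highest in cluster 6, a control-led cluster (512 cells against 8) that was left unnamed although its best list was the elongating one; there it stood at 706 CPM (648 to 768). PLB1 in the same cells was at 46.9 CPM (32.9 to 64.9), below its 153 CPM (142 to 165) in cluster 3. GRXCR2 was at 19.2 CPM (15.9 to 23.1) in cluster 4 and 17.3 (15.2 to 19.6) in cluster 9, 2 levels whose intervals overlap, and at 5.60 (3.62 to 8.27) in cluster 3. SV2A was at 12.8 CPM (11.0 to 14.8) in cluster 9 and 13.0 (9.87 to 16.8) in cluster 3, which did not differ beyond counting error.

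**Figure D3:**
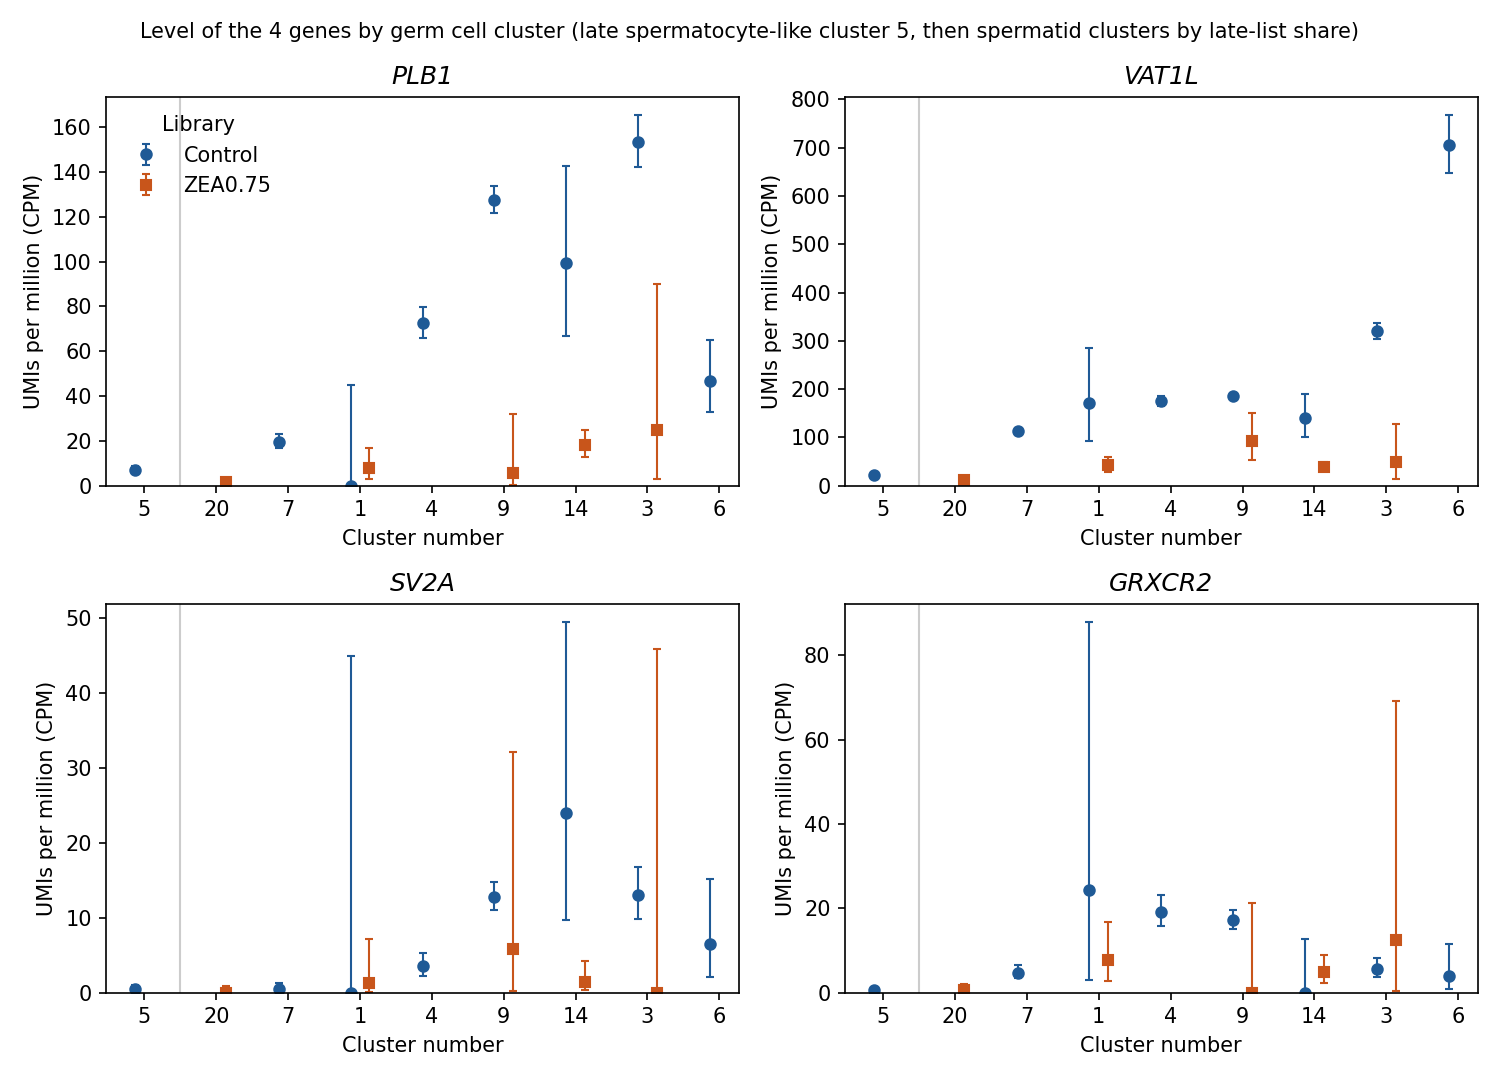
CPM with 95% Poisson intervals by cluster, drawn where a library has at least 20 cells: cluster 5 (late spermatocyte-like) left of the line, then spermatid clusters from the lowest to the highest share of late transcripts. Control circles reach 153 CPM for PLB1 in cluster 3 and 706 CPM for VAT1L in cluster 6; ZEA0.75 squares are at 24.9 CPM or less for PLB1 and 92.0 CPM or less for VAT1L.

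The mix of stage scores differed between the libraries. HMGB4, the most abundant gene of the score, was at 9522 CPM in control and 5463 CPM in ZEA0.75 spermatid-like cells. PRM3, another late gene, was at 624 and 1035 CPM. Whether cells of equal score were of equal stage in both libraries was not tested. Of scored spermatid-like cells, 2.36% in the control and 18.3% in ZEA0.75 had a stage score between 0.25 and 0.5, the early end. The control levels there were 12.1 CPM for PLB1 and 66.5 CPM for VAT1L, with 0 UMIs of SV2A and 1 of GRXCR2, all below the levels at later scores. Among cells with at least 5000 UMIs these shares were 2.25% and 45.8%. With control cells reweighted to the ZEA0.75 mix over score bins (cut at 0.25, 0.5 and 0.75), the log2 ratios were −3.15 for PLB1 (−3.58 to −2.76), −2.52 for VAT1L (−2.74 to −2.31), −2.89 for SV2A (−4.51 to −1.66) and −1.70 for GRXCR2 (−2.41 to −1.07). All 4 stayed below 0, and GRXCR2 was no longer 4-fold lower. Intervals of these reweighted ratios cover the counting error of the ZEA0.75 UMIs only.

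At scores of 0.75 and over, PLB1 was at 143 CPM in 1798 control cells and 17.2 in 765 ZEA0.75 cells (log2 ratio −3.06, −3.59 to −2.57). VAT1L was at 228 and 42.1 CPM there (−2.44, −2.77 to −2.13). SV2A had 199 and 4 UMIs (−2.74, −4.63 to −1.36). GRXCR2 was at 11.97 and 5.58 CPM (−1.10, −2.13 to −0.23), and in cells of that range with at least 5000 UMIs at 13.0 and 10.1 CPM, with an interval that includes 0 (−0.37, −2.01 to 0.88). By its point value GRXCR2 was lower in mid-stage cells: between scores 0.5 and 0.75 it had 247 UMIs in the control and 8 in ZEA0.75 (−2.22, −3.45 to −1.22). That difference between stages was not tested.

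Only clusters 1, 3, 9 and 14 held at least 20 cells of each library. In cluster 14 PLB1 was at 99.4 CPM in 228 control cells and 18.0 in 911 ZEA0.75 cells (log2 ratio −2.46, −3.20 to −1.71). VAT1L was at 141 and 38.5 CPM there (−1.87, −2.43 to −1.29). SV2A had 7 UMIs in those control cells and 3 in the ZEA0.75 cells, where the control rate would give 49.2. GRXCR2 had 0 UMIs in the control, where 3 counts would be 10.3 CPM, and 10 UMIs or 4.88 CPM in ZEA0.75, so which library was higher was not detectable in this cluster. In cluster 3, where 964 control and 47 ZEA0.75 cells were shallow (medians of 3232.5 and 1063 UMIs), PLB1 had 685 and 2 UMIs (−2.63, −5.67 to −0.77) and VAT1L 1428 and 4 UMIs (−2.69, −4.56 to −1.33). SV2A had 0 UMIs in those ZEA0.75 cells where the control rate would give 1.05, and GRXCR2 had 25 and 1 UMIs (1.15, −4.21 to 3.76), so neither was resolved there. In cluster 9 the 20 ZEA0.75 cells held 1 UMI of PLB1 where the control rate would give 22.2, and 16 UMIs of VAT1L where it would give 32.2 (−1.01, −1.82 to −0.31). They held 1 UMI of SV2A and 0 of GRXCR2, where the control rate would give 2.22 and 3.01, so a loss of these genes was not detectable in cluster 9. In the 352 ZEA0.75 cells of cluster 1, 6 UMIs of PLB1 were counted against 0 in the 59 control cells, which allows up to 44.9 CPM there. Reweighted over these 4 clusters, the ratios were −2.37 for PLB1, −1.86 for VAT1L, −3.39 for SV2A and −0.40 for GRXCR2, the last with an interval from −1.18 to 0.27. That interval covers the counting error of the ZEA0.75 UMIs only. Of the 22.5 UMIs of GRXCR2 given by the control rates, 19.0 rest on 2 control UMIs in cluster 1. For SV2A, 49.2 of 52.4 rest on the 7 control UMIs in cluster 14. The reweighted values of these 2 genes are therefore poorly resolved.

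Depth differed as well, and the genes were also low in deep ZEA0.75 cells, which were not matched for stage. With at least 5000 UMIs, 2.25% of control and 45.8% of ZEA0.75 cells scored 0.25 to 0.5. Reweighted over score bins, those deep cells gave log2 ratios of −3.44 for PLB1 (−4.17 to −2.80) and −2.47 for VAT1L (−2.76 to −2.19). GRXCR2 was at −1.56 (−2.47 to −0.79), and SV2A, with 0 UMIs in ZEA0.75, at −2.27 or lower. The values that follow are not reweighted. Among spermatid-like cells with 10000 to 20000 UMIs, PLB1 was detected in 48.7% (46.1 to 51.3) of 1501 control cells and 2.82% (1.04 to 6.03) of 213 ZEA0.75 cells. The median depths there were 13480 and 12055 UMIs. SV2A was detected in 9.06% (7.66 to 10.6) of those control cells and in 0 of the ZEA0.75 cells, where the control rate would give 22.6 UMIs. In the same cells VAT1L was at 160 against 17.8 CPM (log2 ratio −3.16) and GRXCR2 at 14.2 against 4.002 CPM (−1.83). Thinned to 500 UMIs per cell, PLB1 was detected in 3.80% of those control cells and 0 of those ZEA0.75 cells.

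The deepest ZEA0.75 spermatids formed cluster 20, with a median of 9655 UMIs and the lowest share of late transcripts (49.6%). They held 7 UMIs of PLB1 (1.66 CPM), 49 of VAT1L (11.6 CPM), 3 of GRXCR2 (0.711 CPM) and 0 of SV2A. The nearest control cluster by late share, cluster 7 (57.2%), had PLB1 at 19.6 CPM, VAT1L at 112, GRXCR2 at 4.76 and SV2A at 0.476. SV2A was therefore at or near its limit of detection in both of these clusters.

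RNA released from broken cells can add spermatid transcripts to other cells. In somatic-like cells PLB1 was at 37.3 CPM (17.9 to 68.7) in 179 control cells and 1.76 CPM (1.04 to 2.78) in 3641 ZEA0.75 cells. These 2 groups hold different cell types. In the control 112 cells were Sertoli-like, with 6 of the 10 PLB1 UMIs, against 1 Sertoli-like cell in ZEA0.75. There 2252 cells were endothelial-like. The somatic-like values of the libraries therefore do not compare like cells. PLB1 had a UMI in 5.03% of the somatic-like cells in the control (median depth 1159 UMIs) and 0.494% in ZEA0.75 (1922 UMIs), and in 41.5% and 2.69% of the spermatid-like cells (10891 and 2187 UMIs). The somatic-like levels were 40.1% and 24.3% of the level in spermatid-like cells of the same library. The round spermatid list stood at 35.0% and 12.4%, and the elongating list at 34.3% and 19.5%. VAT1L was at 63.5 and 4.11 CPM in somatic-like cells. SV2A had 1 and 2 UMIs and GRXCR2 3 and 4 UMIs there. In the control these few UMIs amounted to 3.73 CPM (0.0946 to 20.8) for SV2A and 11.2 CPM (2.31 to 32.7) for GRXCR2, 87.7% of its spermatid-like level, and both intervals overlapped those of control spermatid-like cells. The control intervals of PLB1 and VAT1L in somatic-like and spermatid-like cells did not overlap. PLB1 and VAT1L in ZEA0.75 spermatid-like cells were above these somatic-like levels with intervals that did not overlap, and so was GRXCR2 (2.73 against 0.391 CPM, upper end 1.00). For SV2A in ZEA0.75 the intervals overlapped (0.221 to 1.59 against 0.0237 to 0.706 CPM), so its 5 UMIs in ZEA0.75 spermatids could not be told from background. The part of free RNA in the ratios was not tested.

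Most control spermatids held at least 1 of the 4 genes. Of control spermatid-like cells, 22.3% had none of the 4 genes, 37.6% had 1, 33.5% had 2, 6.42% had 3 and 0.187% had all 4. In ZEA0.75, 88.9% had none, 10.4% had 1, 0.686% had 2 and 0 of 1749 had more, which allows a share of up to 0.211% by the exact binomial interval. In the control SV2A was found less often in cells with PLB1 than in cells without it. Among 691 control cells of cluster 9 with 10000 to 20000 UMIs, SV2A was detected in 2.52% (1.26 to 4.46) of the 437 cells with PLB1 and in 33.1% (27.3 to 39.2) of the 254 cells without it. The cells with and without PLB1 had median depths of 13704 and 13879.5 UMIs. Of the 116 deeper cells of cluster 9, with 20000 UMIs and over, SV2A was detected in 8.79% (3.87 to 16.6) of those with PLB1 and 60.0% (38.7 to 78.9) of those without. Both genes were found together in some cells: 8 of the 23 deep cells with SV2A also held PLB1. VAT1L was detected in 79.9% and 77.2% of the cluster 9 cells of 10000 to 20000 UMIs with and without PLB1, and GRXCR2 in 21.7% and 22.0%, shares whose intervals overlapped. Over all 1501 control spermatid-like cells of that depth, which span more stages, both were found more often with PLB1: VAT1L in 78.8% (75.7 to 81.7) against 71.8% (68.5 to 74.97), and GRXCR2 in 20.7% (17.8 to 23.8) against 13.4% (11.1 to 15.99). SV2A had the opposite order there too, 2.87% (1.79 to 4.36) against 14.9% (12.5 to 17.7).

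This split was followed with other genes, a step chosen after the values were seen and given with no test. In 912 control cells of cluster 9 with at least 5000 UMIs, 6650 genes were ranked by their correlation across cells with PLB1. The cells share 1 library, so this is a description. The 20 named genes with the highest r, led by KCNRG (0.38), UAP1 (0.36) and PDK2 (0.34), and the 20 with the lowest, led by HAUS6 (−0.41), PLCL2 (−0.41) and NOVA1 (−0.40), made a companion score: the share of the first set among the UMIs of both. SV2A, left out of both sets like the other chosen genes, had r = −0.37 with PLB1. The r of VAT1L was 0.09 and that of GRXCR2 0.01.

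The score had 2 humps in cluster 9, with 45.3% of 941 scored control cells under 0.4, 8.93% between 0.4 and 0.5, and 45.8% at 0.5 and over. In these ranges the median stage scores were 0.796, 0.774 and 0.822 and the median depths 14005, 13091.5 and 13480 UMIs. Cluster 4, whose cells were not used to pick the genes, held 37.2%, 32.4% and 30.4% of 392 scored cells in the 3 ranges, and cluster 7 held 49.5%, 30.9% and 19.6% of 606. So the cut at 0.4 to 0.5 separates the humps in cluster 9, where the score genes were picked. In contrast, 127 cells of cluster 4 and 187 of cluster 7 lie between the cuts.

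**Figure D4:**
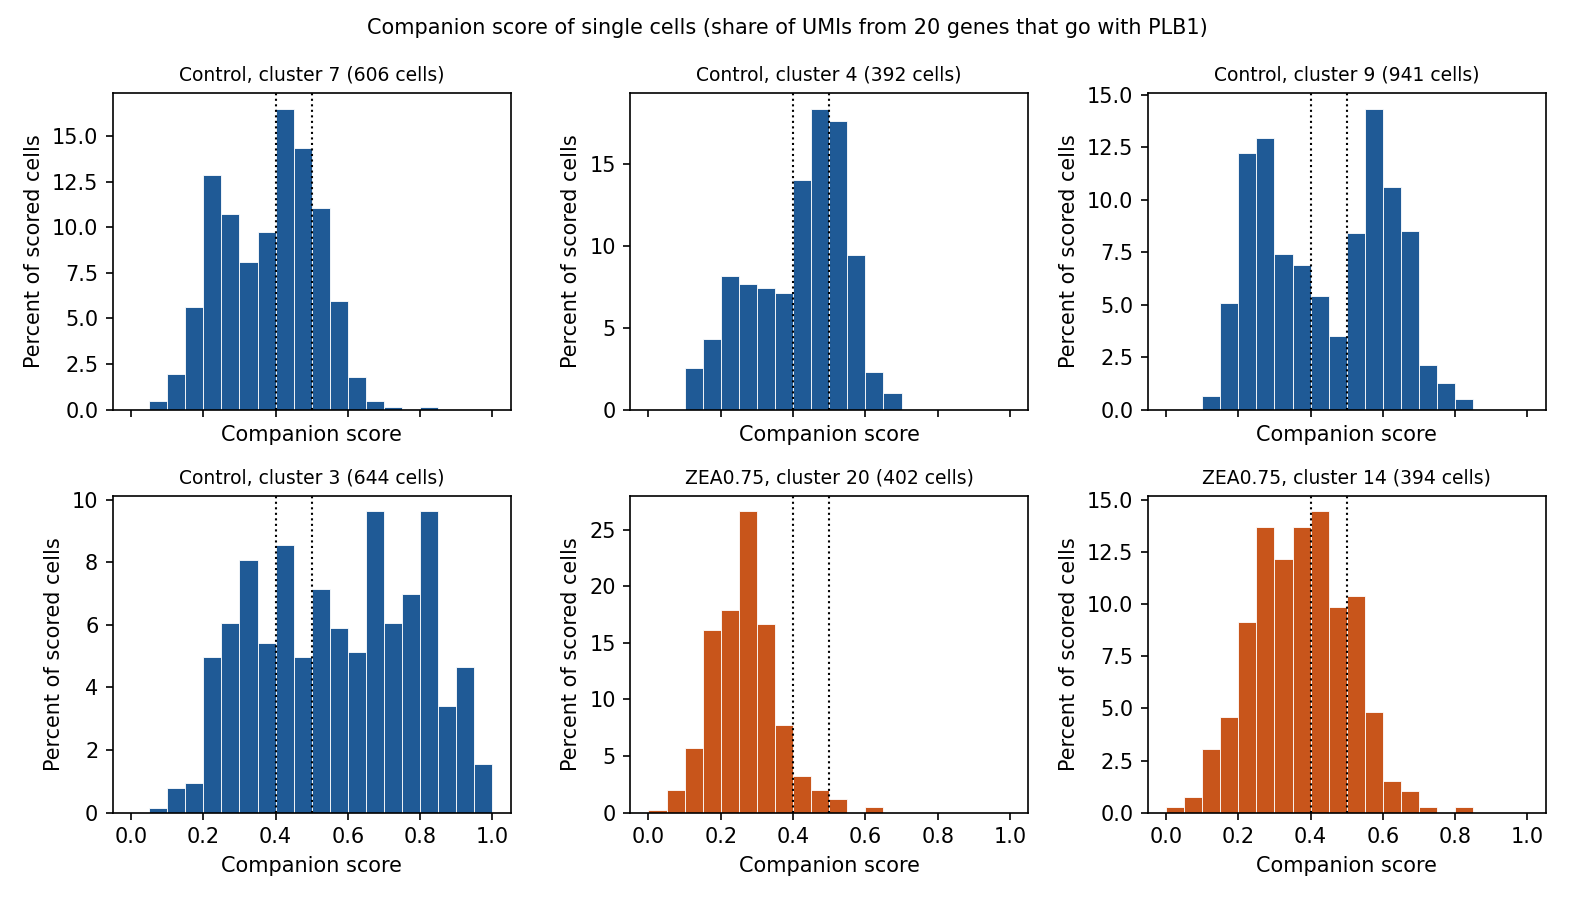
Percent of scored cells by companion score in 4 control clusters (blue) and 2 ZEA0.75 clusters (orange), with dotted lines at 0.4 and 0.5. Control cluster 9 has 2 humps with 8.93% of cells between the lines, and 93.0% of ZEA0.75 cells of cluster 20 lie under 0.4.

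PLB1 and SV2A lay at opposite ends of the score in control clusters 3 and 4, whose cells were not used to pick the companion genes. In cluster 3 PLB1 was at 23.5 CPM (16.3 to 32.9) under 0.4 and 268 CPM (245 to 292) at 0.5 and over. SV2A in the same cells was at 29.8 CPM (21.5 to 40.1) and 2.69 CPM (0.872 to 6.27). In cluster 4 PLB1 was at 29.7 and 99.7 CPM, and SV2A had 17 UMIs in 146 cells and 1 UMI in 119 cells. VAT1L differed less, with 228 against 391 CPM in cluster 3 and 136 against 189 in cluster 4. GRXCR2 was at 19.1 and 21.9 CPM in cluster 4, with intervals that overlapped. The pattern was not seen in every control cluster. In the late spermatocyte-like cluster 5 PLB1 was at 9.34 CPM (5.71 to 14.4) under 0.4 and 6.30 CPM (4.50 to 8.58) at 0.5 and over, with intervals that overlapped. SV2A had only 3, 1 and 0 UMIs in the ranges of cluster 7 and 0, 1 and 0 in those of cluster 14, too few to show an order.

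Scored ZEA0.75 spermatids were mostly at the low end of this score. Under 0.4 were 93.0% (90.1 to 95.3) of 402 scored cells in cluster 20, 57.4% (52.3 to 62.3) of 394 in cluster 14 and 78.4% (68.8 to 86.1) of 97 in cluster 1. Many cells had too few UMIs to score, as cluster 14 held 911 ZEA0.75 cells and cluster 1 held 352. Control cells of cluster 14 were at 43.6% (30.3 to 57.7) of 55 scored, an interval that overlaps that of ZEA0.75 there. In control clusters 4 and 3 low companion scores went with low PLB1 and high SV2A. The same order in cluster 9 follows from the choice of the score genes by their correlation with PLB1 there. With spermatid-like cells of both libraries limited to scores under 0.4, PLB1 was at 27.6 against 5.83 CPM, a log2 ratio of −2.24 (−2.82 to −1.72) in place of −3.69. SV2A was at 16.6 against 0.376 CPM (−5.46, −8.52 to −3.59). This limit does not match the stages: 374 of the 696 ZEA0.75 cells under 0.4 were of cluster 20, where SV2A is near its limit of detection, while 426 of the 1070 control cells were of cluster 9. PLB1 in ZEA0.75 cells under 0.4 was at 1.52 CPM in cluster 20 and 21.7 CPM (12.9 to 34.4) in cluster 14. The cluster 14 interval overlapped those of control cells under 0.4 in clusters 3 (23.5 CPM, 16.3 to 32.9) and 9 (37.2 CPM, 32.6 to 42.2). Over all spermatid-like cells under 0.4, VAT1L was at 143 against 20.5 CPM (−2.80) and GRXCR2 at 14.2 against 2.63 CPM (−2.43). What sets the companion score of a cell was not tested. The labels do not say whether the control library holds cells of 1 animal or of several, so cells of different animals cannot be told apart.

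**Figure D5:**
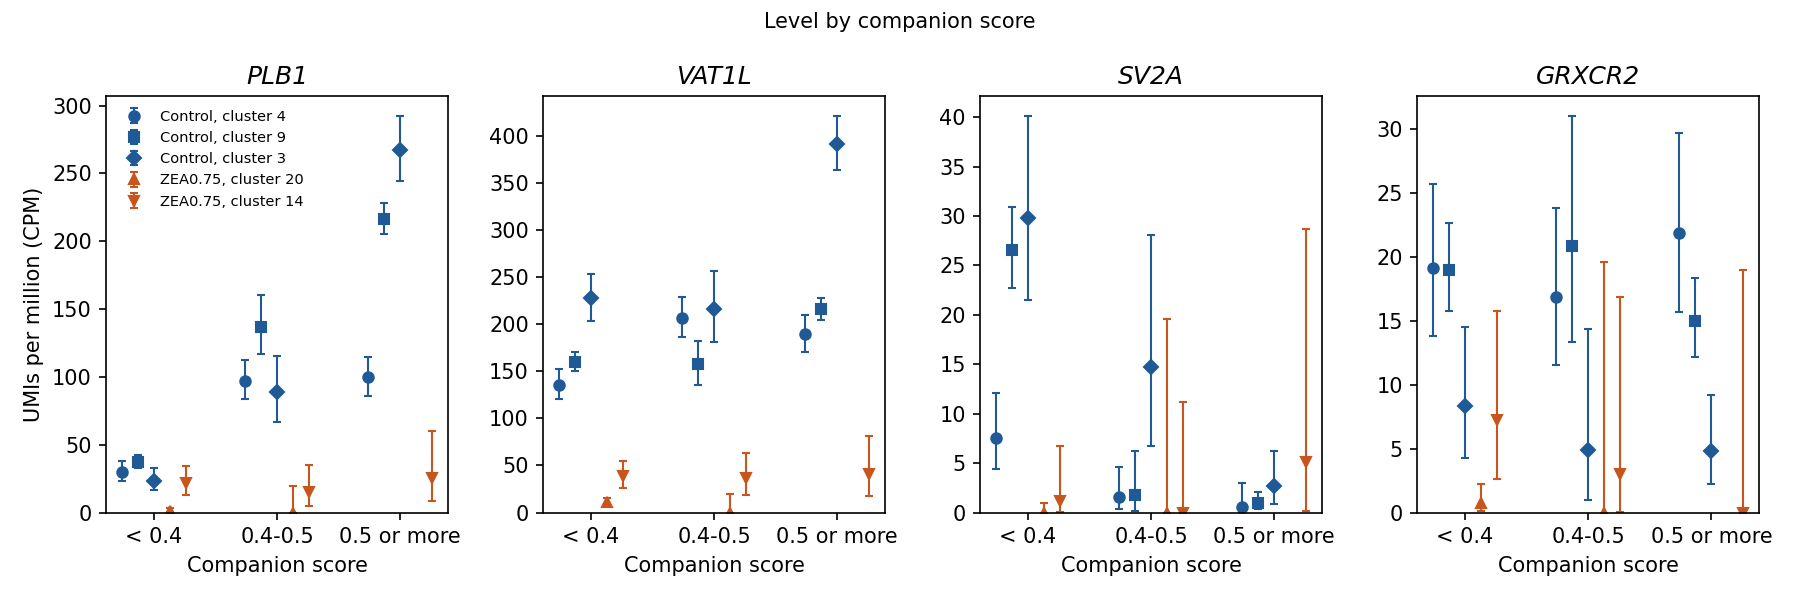
CPM of each gene with 95% Poisson intervals in 3 ranges of the companion score, for control clusters 4, 9 and 3 (blue) and ZEA0.75 clusters 20 and 14 (orange), drawn for ranges with at least 20 cells. In control cluster 3 PLB1 goes from 23.5 to 268 CPM and SV2A from 29.8 to 2.69 CPM across the score. At scores under 0.4 the ZEA0.75 points of all 4 genes lie below the control points. The intervals of ZEA0.75 cluster 14 overlap control ones there for PLB1, SV2A and GRXCR2.

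The 40 companion genes themselves were less apart between the libraries than PLB1 was. The 20 that went with PLB1 had a median log2 ratio of −0.72 (range −2.11 to 0.61), and the 20 that went against it −0.25 (−1.24 to 1.05). At least 4-fold lower, where 0.802% of all genes were, were 2 of the first 20, the cone channel subunit CNGB3 (2492 against 127 UMIs, −2.11) and the pyruvate dehydrogenase kinase PDK2 (2173 against 118 UMIs, −2.02), and 0 of the second. These genes were chosen for their correlation with a gene that was itself chosen for its ratio.

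The 5 genes with the most similar pattern to each of the 4 were found over the 12 control clusters of at least 50 cells. The clusters share 1 library, and r is given on log2(CPM + 1). PLB1 was most like SH2D4B (r = 0.97), CCDC32, SPIN1, GK5 and LIMK2, whose log2 ratios in spermatid-like cells ranged from −1.75 for SH2D4B to 0.69 for the glycerol kinase gene GK5. VAT1L was most like ACSBG2 (0.98), an acyl-CoA synthetase gene of testis, and ABHD16B, DACT3, SYNE4 and the testis kinase gene TSSK1B, with ratios from −1.05 (TSSK1B) to −0.10 (ACSBG2). SV2A was most like ELF1 (0.92), TMPRSS13, ERBB3, FUT11 and NMNAT2, with ratios from −0.43 (TMPRSS13) to 1.19 (FUT11). GRXCR2 was most like FOSL2 (0.84), BMT2, VOPP1, DNAL4 and SERPINA10, with ratios from −0.80 (FOSL2) to −0.04 (VOPP1). Of these 20 genes 0 were at least 4-fold lower, against 0.802% of all genes, so that count is near the background. Between the chosen genes, r over the clusters was 0.75 for PLB1 with SV2A, 0.43 for PLB1 with VAT1L and −0.03 for PLB1 with GRXCR2; over clusters PLB1 and SV2A were thus alike, although over cells they were not.

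Lists of relatives by family or function gave the context of each gene. They were counted at a 2-fold limit, past which 5.07% of all 9969 genes were lower and 20.3% higher in ZEA0.75. Of 12 phospholipases and related lipases that entered, 0 were 2-fold lower and 1 was higher, the platelet-activating factor acetylhydrolase gene PLA2G7 (19.9 against 40.9 CPM, log2 ratio 1.04). LIPE, the hormone-sensitive lipase, was at 47.7 against 28.5 CPM (−0.74), PAFAH1B2 at −0.82 and PLA2G12A at 0.61. Of 6 genes of the VAT1 and quinone oxidoreductase family, 0 were lower and 1 was higher, the prostaglandin reductase gene PTGR1 (1.29). VAT1 itself, the closest relative listed, had 354 and 46 UMIs (−0.76, −1.24 to −0.32), MECR had −0.33 and CRYZL1 −0.11. The medians of these lists were −0.09 and −0.11 against 0.35 for all genes.

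Of 9 synaptic vesicle and exocytosis genes that entered, 2 were 2-fold lower and 1 was higher, with a list median of −0.21. The lower ones were membrane fusion (SNARE) genes: SNAP25, the neuronal one, with 84 UMIs in the control and 2 in ZEA0.75 (−3.21, −6.28 to −1.31), and the abundant SNAP29 with 38463 and 2075 UMIs (−2.03, −2.10 to −1.97). The 2 other SV2 genes did not share the low level of SV2A. SV2C was higher in ZEA0.75, with 184 and 112 UMIs (1.47, 1.11 to 1.81), and SV2B had 122 and 21 UMIs (−0.36, −1.10 to 0.32). NSF, which takes SNARE complexes apart, was at −0.68 (−1.68 to 0.20). Of 9 glutaredoxin and hair bundle genes, 2 were higher and 1 was lower, with a median of 0.07. GRXCR1, the paralog of GRXCR2, was the lower one, with 745 and 48 UMIs (−1.77, −2.23 to −1.35). RDX (2.60) and MYO6 (1.85), a membrane linker and a motor of the actin bundle, were higher, and PTPRQ was at 0.85.

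Genes beside the 4 in the RefSeq annotation (assembly ARS-UI_Ramb_v3.0, used for gene order only) gave values for 4 neighbours, and for none of PLB1. NUDT7, next to VAT1L, had a log2 ratio of 0.58 (0.01 to 1.13). BOLA1, next to SV2A, had 58058 and 10603 UMIs (−0.27, −0.30 to −0.24). GRXCR2 lies between PRELID2, with 6 and 19 UMIs (3.84, 2.46 to 5.46), and SH3RF2, with 30276 and 2743 UMIs (−1.28, −1.34 to −1.23). The latter was 2-fold lower, though less so than GRXCR2 by its point value. In that annotation an uncharacterised lncRNA gene overlaps PLB1 and a snoRNA gene overlaps VAT1L; reads of overlapping genes may have been split or dropped in counting.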

How the data were processed

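The deposited values are counts: raw UMI counts per gene and barcode, made by the authors with Cell Ranger, version 5.0.0 for the control and 3.1.0 for ZEA0.75 per the file headers. Per the submitters' processing notes both libraries went through Cell Ranger 3.1.0 with STAR, which differs from the control's header. No source used here names the genome build or annotation. Barcodes numbered 7030 (53044981 UMIs) and 8809 (22148456 UMIs). Cells needed at least 500 UMIs, 200 genes and at most 20% mitochondrial UMIs (13 genes). Scrublet in scanpy 1.11.5 marked 198 control barcodes (2.82%) and 1 ZEA0.75 barcode (0.0114%), so it did not work in ZEA0.75, and doublets there were not removed.

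Cells were scaled to 10000 UMIs and logged, reduced to 2000 variable genes and 30 components without integration, and clustered (Leiden, resolution 1). A cluster was named from the best-scoring marker list, which had to lead the next by 0.2 and have 3 enriched markers, with leading genes that did not go against it; these criteria were set after the clusters were seen, and 8 clusters stayed unnamed. A cluster's share of cells may therefore rest on rebuilt names. The unnamed clusters 0, 2, 6 and 18 scored best on a spermatid list and entered as an alternative.

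UMIs were summed per library and cell class. Levels have exact Poisson, shares exact binomial (Clopper-Pearson) and ratios exact conditional binomial 95% intervals. Intervals of reweighted ratios cover the counting error of the ZEA0.75 UMIs only. A count of 0 was set to 3 counts. UMIs without replicate libraries give counting error only. Ratios and intervals were tested on simulated data. The 4 genes, marker lists and relatives were chosen with earlier results of these data known. Besides the 4, the text names the 5 genes most like each of them over control clusters, up to 4 genes with the largest ratio per list of relatives (and SV2B, the other SV2 gene, added after its value was seen), adjacent genes, and companion genes picked after their values were seen. The stage score needs 10 UMIs of its lists, and so does the companion score; companion genes were detected in 5% to 98% of the cells used.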

Additional observations from a re-analysis of the deposited data

How the results depend on the processing

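Each ratio was recomputed under 17 alternatives, 3 of which (reweighting over shared clusters, reweighting of deep cells, and the companion score limit) were added after seeing the data. The point value, or the upper bound where SV2A had 0 UMIs in ZEA0.75, stayed below 0 in all 17 for each gene. It ranged from −5.74 to −2.24 for PLB1, −3.80 to −1.86 for VAT1L, −5.46 to −1.24 for SV2A and −4.10 to −0.40 for GRXCR2. It was at least 4-fold lower in 17, 16, 16 and 11 of them. Values outside the counting interval of the main ratio were as follows, and the cause of the shifts was not tested. With elongating cells alone the values were −2.94 (PLB1), −2.34 (VAT1L) and −1.58 (GRXCR2). Thinning every cell to 500 UMIs gave −3.04 (PLB1, −4.07 to −2.16), −1.24 (SV2A, −3.69 to 0.62) and −1.37 (GRXCR2, −3.39 to 0.22), from far fewer UMIs. These intervals include the main values, so no shift was resolved by thinning. Leiden resolution 0.5 gave −5.74 (PLB1), −3.80 (VAT1L) and −4.10 (GRXCR2). Reweighting over score bins gave −3.15 (PLB1) and −2.52 (VAT1L), and over shared clusters −2.37 (PLB1), −1.86 (VAT1L) and −0.40 (GRXCR2). Cells with at least 5000 UMIs gave −4.53 for PLB1, and reweighted over score bins −2.47 (VAT1L), −1.56 (GRXCR2) and −2.27 or lower (SV2A, 0 UMIs in ZEA0.75). The SV2A value is an upper bound and shows no shift. Companion scores under 0.4 gave −2.24 (PLB1) and −5.46 (SV2A). VAT1L was at −3.39 over all kept cells and −3.24 when scaled to the median gene. The number of genes at least 4-fold lower was 80, and became 33 with at least 200 UMIs per gene, 140 with at least 10, 122 when scaled to the median gene, 20 after thinning and 288 in cells with at least 5000 UMIs. Leaving out a library was not possible with 1 per group. No paired analysis was possible because each group has 1 library. Depth limits SV2A most, with 5 UMIs in ZEA0.75 spermatids.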
